A study of Rattus norvegicus with 20 samples.

Results

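The genes of glycolysis, lactate handling and the citric acid cycle were followed at 3 postnatal ages in rat globular bushy cells, neurons of the ventral cochlear nucleus. The set was given as 41 gene symbols. A gene belonged to it through every probe set of the array whose platform annotation names that gene alone, which held for 38 of the 41 out of 14218 genes named on the array. These 38 genes have 60 probe sets. The pyruvate kinase gene Pkm, the pyruvate dehydrogenase subunit gene Dlat and the fumarase gene Fh had no probe set of their own by this rule. Gapdh was represented only by 3 control probe sets and was not tested, which leaves 37 genes, each read through its brightest probe set over the 15 arrays compared. All 37 probe sets passed the filter on dim signals, a level above 4 on the log2 scale in at least 5 of 15 arrays. That of Hk2 would not have passed without its P21 arrays.

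Globular bushy cells send an axon across the midline to the medial nucleus of the trapezoid body, where it forms the calyx of Held, a giant synaptic terminal. Sprague Dawley rats, with no other treatment, received the fluorescent retrograde tracer cholera toxin B in that nucleus. After 24 hours, 200 labelled cells per animal were cut from sections 12 µm thick by laser microdissection, and their RNA was amplified linearly over 2 rounds. The groups were P3, when the calyx has just formed (6 animals), P8, the juvenile stage (9 animals), and P21, the mature stage (5 animals). Each array therefore holds a pool of 200 cells from 1 animal, and cutting from a section can take along parts of neighbouring cells.

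Glycolysis splits glucose into pyruvate in the cytosol, and lactate dehydrogenase interconverts pyruvate and lactate. The pyruvate dehydrogenase complex passes pyruvate on to the citric acid cycle of the mitochondria, unless its kinases, the Pdk enzymes, switch it off by phosphorylation. The malate-aspartate enzymes carry the reducing power of cytosolic NADH into the mitochondria. Many steps have isoenzymes encoded by different genes, and in the rodent brain oxidative metabolism is known to increase over the first postnatal weeks.

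Each level is a log2(intensity + 1). A change is the later mean minus the earlier mean of such values, with its standard error. The arrays of P8 replicates 5 to 9 differed from the remaining 15 in features unrelated to the gene set. The mean level of 45 bacterial and phage control probe sets was 6.80 to 7.52 on them and 4.07 to 4.48 on the others, and their median intensities were 58.9 to 67.5 against 23.8 to 32.5. P8 below therefore means replicates 1 to 4, and replicates 5 to 9 are described separately. Markers of bushy and other fast auditory neurons had mean levels of 7.69 to 8.06 at P3, 8.47 to 9.55 at P8 and 9.70 to 10.11 at P21, with 9 of 12 markers higher at P21 than at P3. Markers of oligodendrocytes, the myelin-forming cells, also rose: the mean of 11 measured markers was 4.45 to 5.65 at P3, 6.91 to 8.32 at P8 and 8.13 to 8.98 at P21. All 11 were higher at P21 than at P3, and 5 of them had a median at or below log2 4 at P3 while none did at P21. Their mean differed by 3.57 between P3 and P21 (exact permutation test, two-sided, p = 0.00216, adjusted p = 0.026 over 36 tests). The astrocyte marker mean differed by 0.47 (adjusted p = 0.0612, same exact test), with 3 of 8 markers higher and 2 lower. Inhibitory neuron markers fell by 1.00 (adjusted p = 0.0286, same exact test), with 2 of the 4 markers at or below log2 4 at each of the 3 ages. The oligodendrocyte precursor mean differed by -0.67 (adjusted p = 0.0612), with 1 of 4 tested markers higher and 3 lower. The cerebellar granule cell mean differed by 1.06 (adjusted p = 0.0779, same exact test) and was 5.55 to 6.28 at P3 and 5.73 to 8.63 at P21. The part of these marker shifts in the results that follow was not tested beyond a fit with the oligodendrocyte mean as a covariate.

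From P3 to P21, 18 of the 37 tested genes rose and 2 fell. The 18 include Hk2, which passed the filter on dim signals only with its P21 arrays. The genes that rose lay in every step of the pathway except lactate dehydrogenase: glucose and lactate transport, upper and lower glycolysis, the pyruvate dehydrogenase complex, its kinases, the citric acid cycle and the malate-aspartate enzymes. The genes that fell were Ldha, which encodes the muscle-type subunit of lactate dehydrogenase, and Pdk1, a kinase that inhibits pyruvate dehydrogenase. Changes of called genes ran from 0.53 to 2.05 upwards and from -1.13 to -1.99 downwards, with adjusted p from 1.04e-06 to 0.0401 by limma over all 21805 tested probe sets. Risen genes made up 48.6% of the 37, beside 18.6% of all tested probe sets, and fallen genes 5.4%, beside 18.4%. The median change was 0.53 over the set and 0.028 over all tested probe sets. For 14 genes every P21 array lay above every P3 array (13.9% of all tested probe sets), and for 2 every P21 array lay below (13.4%). Over all 20 arrays, which add the P8 arrays that stood apart, the count of risen genes dropped to 2. The share of all tested probe sets called in that fit is not given here. The drop is therefore not read as particular to these genes. With the oligodendrocyte marker mean as a covariate limma called 0 in either direction. Of all 21805 tested probe sets 32 were called with this covariate. The marker mean did not overlap between the 2 ages, so the fit can hardly part it from age. In that fit, whose standard errors were wider, Ldha was at -2.63 ± 0.72 (adjusted p = 0.113) and Pdk2 at 3.83 ± 0.92 (adjusted p = 0.0849), both farther from 0 than without the covariate. Of the called genes, Hk2, Slc2a3, Sucla2, Suclg1, Pfkm, Pgam1 and Eno2 came closer to 0 in it, and all others moved farther. Hk2 was at 0.16 ± 0.87 instead of 0.63, Slc2a3 at 0.43 ± 0.59 instead of 0.92, and Sucla2 at 0.37 ± 0.61 instead of 0.66. Gpi was at 1.71 ± 0.90 instead of 0.94, and Idh3a at 1.82 ± 0.67 instead of 1.24. In these bulk samples a change in the number of cells of a type and a change in RNA per cell cannot be told apart.

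**Figure D1:**
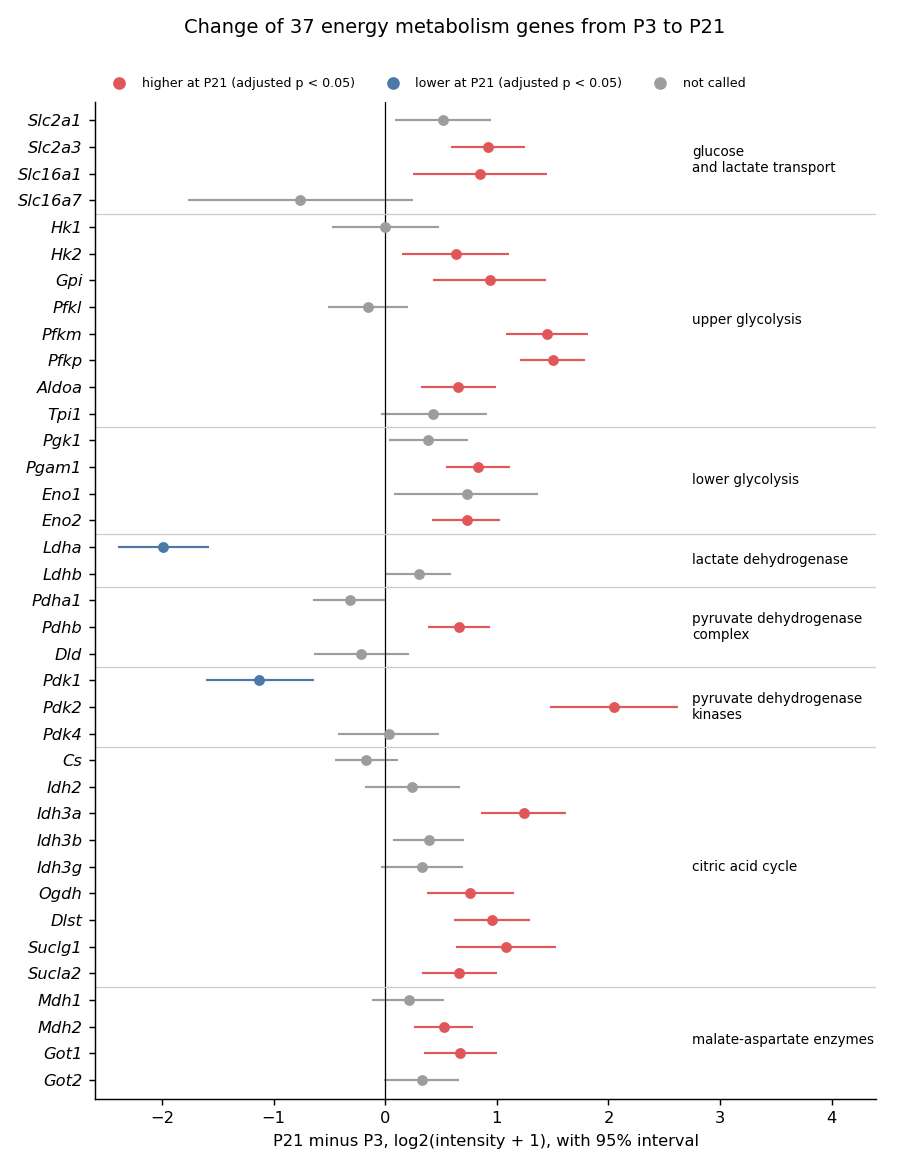
Change from P3 (n = 6) to P21 (n = 5) for each of the 37 tested genes, ordered by step of the pathway; points are limma differences of mean log2(intensity + 1) and bars their 95% intervals. Of the 37 genes 18 lie to the right of 0 as called and 2, Ldha and Pdk1, to the left as called, with Pdk2 at 2.05 and Ldha at -1.99 as the extremes.

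Among the transporters, the neuronal glucose transporter gene Slc2a3 (GLUT3) and the lactate transporter gene Slc16a1 (MCT1) rose. Slc2a3 read 8.15 to 8.82 at P3 (median 8.62), then 9.19, 9.25, 9.10 and 9.22 at P8, and 9.62, 9.76, 9.49, 9.15 and 9.38 at P21. Its P3 arrays did not overlap with either later group, and it rose by 0.92 ± 0.16 from P3 to P21 (adjusted p = 0.000315, limma). Slc16a1, which oligodendrocytes and endothelial cells also express, read 6.86 to 8.19 at P3 (median 7.43) and 8.17, 8.67, 8.25, 8.05 and 8.18 at P21. Its groups overlapped, its change was 0.85 ± 0.28 (adjusted p = 0.0266, limma), and the call was lost in 3 fits that left out 1 array, with an adjusted p of 0.0687 without P21 replicate 2. At P8 Slc16a1 read 8.23, 7.68, 6.87 and 8.36, as wide a range as at P3. The glucose transporter gene Slc2a1 (GLUT1), abundant in brain endothelium, read 7.11 to 8.21 at P3 (median 7.67), 7.30, 7.27, 7.79 and 7.99 at P8, and 7.90, 8.31, 8.41, 8.36 and 8.07 at P21. Its difference of 0.52 ± 0.20 just missed the threshold (adjusted p = 0.0529, limma). The endothelial marker mean differed by 0.31 between the same ages (adjusted p = 0.0612, exact permutation test). Slc16a7 (MCT2), the high-affinity lactate transporter of neurons, read 5.05 to 6.02 at P3 (median 5.35), 4.50, 6.83, 4.61 and 3.88 at P8, and 4.38, 4.47, 3.55, 5.01 and 5.93 at P21. It was variable at both later ages, and its difference of -0.76 ± 0.48 was not called (adjusted p = 0.229, limma).

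In upper glycolysis, where glucose is phosphorylated and split, 5 of 8 genes rose from P3 to P21 and 3 were not called. The largest changes were those of 2 phosphofructokinase genes, which encode the enzyme of the main committed step. Pfkp, the platelet-type subunit, read 8.75 to 9.40 at P3 (median 8.92), 10.31, 10.44, 10.27 and 10.49 at P8, and 10.64, 10.48, 10.44, 10.59 and 10.26 at P21. Most of this change was present at P8: Pfkp rose by 1.40 ± 0.15 from P3 to P8 (2.63-fold, adjusted p = 7.6e-05), and its P8 and P21 arrays overlapped, with a difference of 0.11 ± 0.15 (adjusted p = 0.69, limma). Pfkm, the muscle-type subunit, read 7.88 to 8.79 at P3 (median 8.57), 8.96, 9.34, 9.43 and 9.36 at P8, and 9.94, 10.09, 10.19, 9.73 and 9.74 at P21. No 2 of its age groups overlapped, and Pfkm rose in both intervals, by 0.78 ± 0.19 (adjusted p = 0.0127) and by 0.67 ± 0.19 (adjusted p = 0.029, limma). The later rise of Pfkm lost its call in 4 fits that left out 1 array, with an adjusted p of up to 0.0795 without P8 replicate 1. Pfkl, the liver-type subunit, was dim, at 4.16 to 5.15 at P3 (median 4.59), 4.78, 4.83, 4.84 and 4.55 at P8, and 4.37, 4.48, 4.56, 4.63 and 4.49 at P21. Its change of -0.15 ± 0.17 (95% interval -0.51 to 0.20) was not called.

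The first enzyme of the pathway, hexokinase, gave a mixed reading. Hk1, the main hexokinase of brain, read 7.45 to 8.26 at P3 (median 7.94), 8.13, 7.48, 7.59 and 7.95 at P8, and 8.03, 8.36, 8.11, 7.08 and 7.91 at P21. Its groups overlapped, with a change of 0.00 ± 0.22 (95% interval -0.48 to 0.48), whereas a second, dimmer Hk1 probe set was higher at P21 by 1.01. Hk2, the inducible form, read 3.29 to 4.37 at P3 (median 3.73), 4.15, 3.95, 3.74 and 3.93 at P8, and 3.68, 4.10, 4.56, 4.91 and 4.67 at P21. Hk2 was near the dim limit, and its groups overlapped. It was above log2 4 on 1 of 6 P3, 1 of 4 P8 and 4 of 5 P21 arrays. Hk2 thus passed the filter only with the group where it was highest, and its rise is not independent of that filter. Its change of 0.63 ± 0.23 (adjusted p = 0.0401, limma) was not called when no filter was used. The call was also lost in 8 of 15 fits that left out 1 array, up to an adjusted p of 0.108 without P21 replicate 4. Gpi, which interconverts glucose and fructose phosphates, rose by 0.94 ± 0.24 (adjusted p = 0.00593, limma), with no overlap between P3 and P21. Aldoa, the aldolase that splits the sugar, rose by 0.65 ± 0.16 (adjusted p = 0.00437, limma). Tpi1, which interconverts the resulting triose phosphates, had a difference of 0.43 ± 0.22 that was not called (adjusted p = 0.137, limma). The P3 values of Tpi1 were 10.18 to 10.40 on 5 arrays and 9.10 on replicate 1.

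In lower glycolysis, from triose phosphate to pyruvate, 2 of the 4 tested genes rose and 2 were not called. Eno2, the neuronal enolase, read 10.77 to 11.15 at P3 (median 10.88), 11.41, 11.60, 11.82 and 11.50 at P8, and 11.86, 11.76, 11.74, 11.61 and 11.23 at P21. The P3 arrays of Eno2 lay below all arrays of both later ages, and its rise of 0.73 ± 0.14 from P3 to P21 (adjusted p = 0.000996, limma) was already 0.67 ± 0.15 by P8. Pgam1, the phosphoglycerate mutase of brain, rose by 0.83 ± 0.14 (adjusted p = 0.000216) to P21 and by 0.70 ± 0.14 (adjusted p = 0.00593, limma) to P8. Eno1, the enolase of most other tissues, read 6.76 to 8.85 at P3 (median 8.50), 8.98, 8.77, 8.76 and 9.13 at P8, and 8.97, 8.87, 9.11, 8.79 and 8.77 at P21. P3 replicate 1 was its lowest array, and its difference of 0.73 ± 0.30 was not called (adjusted p = 0.0712, limma). Without that array the difference was 0.44 ± 0.19 (adjusted p = 0.0911), and without P3 replicate 3 it was 0.86 ± 0.30 and called (adjusted p = 0.0403). Pgk1, phosphoglycerate kinase, had a difference of 0.38 ± 0.17 that was not called (adjusted p = 0.0844, limma). Without P21 replicate 5 it was 0.53 ± 0.15 and called (adjusted p = 0.0123, limma), in 1 of 15 such fits.

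Gapdh could be read only through 3 control probe sets placed along its transcript. The 3' probe set read 10.79 ± 0.29 (SD, n = 6) at P3, 10.83 ± 0.10 (n = 4) at P8 and 11.12 ± 0.18 (n = 5) at P21. The 5' probe set went the other way, from 7.88 ± 0.39 at P3 to 7.56 ± 0.46 at P8 and 7.13 ± 0.63 at P21. The middle probe set was 8.94 ± 0.61, 8.43 ± 0.30 and 8.64 ± 0.26. The direction of Gapdh therefore depended on the position read, and no change is given for the gene. The 3' minus 5' difference of Gapdh, which grows when amplified RNA is shorter, was 2.91 ± 0.27 at P3 and 3.99 ± 0.66 at P21 (difference 1.08, adjusted p = 0.026, exact permutation test). The same difference for beta-actin was 4.70 ± 0.30 at P3 and 4.32 ± 0.69 at P21 (adjusted p = 0.364, exact permutation test). The part of RNA length in the changes of the other genes was not tested. The 3 control probe sets for hexokinase were near the floor, with means of 1.60 to 2.90 in the 3 groups, and give no reading of Hk1.

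**Figure D2:**
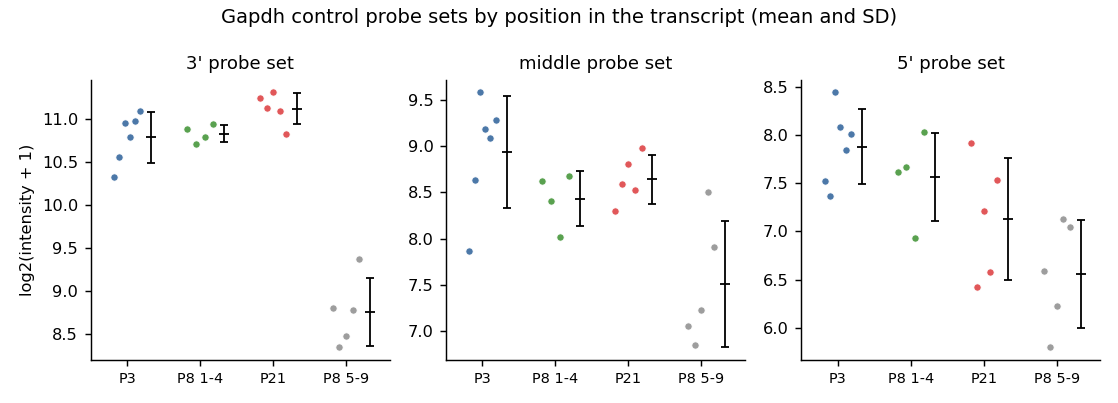
Level of the 3 Gapdh control probe sets, log2(intensity + 1), on each array of P3, P8 replicates 1 to 4, P21 and P8 replicates 5 to 9; points are arrays, and the line and bar are the mean and SD. The 3' probe set is highest at P21 (11.12) while the 5' probe set is lowest there (7.13) among the 15 arrays compared.

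The lactate dehydrogenase pair diverged. The enzyme is built from muscle-type subunits encoded by Ldha and heart-type subunits encoded by Ldhb, and enzyme rich in the muscle type is classically linked to lactate formation. Because the genes of this pair and of the Pdk pair described next moved apart, their promoter windows are shown, from 250 bases before to 50 bases after the RefSeq transcription start of assembly GRCr8. Capitals mark matches of the 5 bases ACGTG on either strand, which occur in hypoxia response elements and in E-boxes of the form CACGTG. Other forms of these elements were not searched for, so a window with 0 matches can still hold such an element. The Ldha window is chr1:106507842-106508141 on the plus strand, and the Ldhb window is chr4:177177359-177177658 on the minus strand.
Ldha: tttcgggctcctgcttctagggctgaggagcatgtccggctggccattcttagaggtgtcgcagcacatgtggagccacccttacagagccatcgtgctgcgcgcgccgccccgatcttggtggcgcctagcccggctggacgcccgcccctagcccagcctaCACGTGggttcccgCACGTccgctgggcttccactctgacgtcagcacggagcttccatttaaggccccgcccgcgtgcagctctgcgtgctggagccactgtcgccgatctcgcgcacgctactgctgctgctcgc
Ldhb: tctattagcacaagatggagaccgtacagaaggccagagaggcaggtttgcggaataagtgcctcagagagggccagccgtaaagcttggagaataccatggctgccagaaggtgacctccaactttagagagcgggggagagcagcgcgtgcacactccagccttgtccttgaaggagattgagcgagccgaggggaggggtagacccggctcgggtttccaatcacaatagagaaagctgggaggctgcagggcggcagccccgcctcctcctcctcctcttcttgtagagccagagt
The Ldha window holds 3 matches, at -87, -86 and -73 from the start (the first 2 overlap, as CACGTG reads the same on both strands), and the Ldhb window holds 0. A match is a description of the letters only.

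Ldha read 9.38 to 9.98 at P3 (median 9.75), then 9.11, 9.24, 9.39 and 8.56 at P8, and 8.19, 7.78, 7.34, 7.94 and 7.54 at P21. Every P21 array was below every array of the younger ages, and the P8 arrays reached from the low end of P3 downwards. Ldha fell by 1.99 ± 0.19 on the log2 scale from P3 to P21 (3.96-fold lower, adjusted p = 1.54e-06, limma). Most of the fall came after P8, with -1.32 ± 0.21 from P8 to P21 (adjusted p = 0.00069) and -0.67 ± 0.20 from P3 to P8 (adjusted p = 0.0374, limma). The earlier step lost its call in 8 of 15 fits that left out 1 array, up to an adjusted p of 0.107 without P8 replicate 4. Ldhb read 11.04 to 11.22 at P3 (median 11.15), 11.31, 10.90, 11.14 and 11.36 at P8, and 11.57, 11.56, 11.62, 11.42 and 11.07 at P21. Its groups overlapped at all ages, and its difference of 0.30 ± 0.14 from P3 to P21 was not called (adjusted p = 0.0972, limma). Without P21 replicate 5, its lowest P21 array, the difference was 0.39 ± 0.13 and called (adjusted p = 0.0292, limma), in 1 of 15 such fits. Levels of different probe sets cannot be set against each other, but the change of their difference within an array can be read. Ldhb minus Ldha was 1.24 to 1.66 on the P3 arrays, 2.20, 1.66, 1.74 and 2.81 at P8, and 3.38, 3.79, 4.27, 3.48 and 3.54 at P21. The difference shifted by 2.28 ± 0.17 towards Ldhb from P3 to P21, with no overlap between the groups (adjusted p = 0.0238 over 33 pair tests, exact permutation test). It shifted by 0.70 to P8 (adjusted p = 0.0349) and by a further 1.59 to P21 (adjusted p = 0.0327, exact permutation test). The call to P8 was lost in 13 of 15 repeats that left out 1 array, with a shift of 0.46 without P8 replicate 4, and the call from P8 to P21 in 9 of 15, with shifts of 1.44 to 1.82. Leaving out an array also raises the smallest p that these tests can give.

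The pyruvate dehydrogenase complex was measured through 3 of its 4 listed subunits, of which 1 rose. Pdhb, the beta subunit of the first enzyme, rose by 0.66 ± 0.13 from P3 to P21 (adjusted p = 0.00119) and by 0.52 ± 0.14 from P3 to P8 (adjusted p = 0.0243, limma). The call to P8 was lost without P8 replicate 4 (adjusted p = 0.0602). Pdha1, the alpha subunit that the kinases phosphorylate, had a difference of -0.32 ± 0.16 (adjusted p = 0.124, limma). Dld, the subunit shared with the 2-oxoglutarate dehydrogenase complex, had a difference of -0.22 ± 0.20 (adjusted p = 0.428, limma). The 2 subunits of the first enzyme thus had differences of opposite sign, of which only that of Pdhb passed the test.

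Of the 3 listed kinases that switch this complex off, 1 rose, 1 fell and 1, Pdk4, was not called. Pdk2 rose more than any other of the 37 genes from P3 to P21, and Pdk1 fell. A further kinase, Pdk3, is not in the set but in a wider list of pathway genes, and its difference of -0.33 ± 0.23 was not called (adjusted p = 0.287, limma). The Pdk1 window is chr3:77113264-77113563 on the plus strand, and the Pdk2 window is chr10:80483863-80484162 on the minus strand, with the same capitals as above.
Pdk1: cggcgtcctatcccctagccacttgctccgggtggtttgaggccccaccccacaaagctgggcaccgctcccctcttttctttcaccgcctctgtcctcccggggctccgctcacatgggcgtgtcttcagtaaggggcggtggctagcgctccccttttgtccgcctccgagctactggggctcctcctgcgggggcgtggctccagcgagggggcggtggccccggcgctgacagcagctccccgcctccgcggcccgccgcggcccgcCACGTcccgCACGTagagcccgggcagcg
Pdk2: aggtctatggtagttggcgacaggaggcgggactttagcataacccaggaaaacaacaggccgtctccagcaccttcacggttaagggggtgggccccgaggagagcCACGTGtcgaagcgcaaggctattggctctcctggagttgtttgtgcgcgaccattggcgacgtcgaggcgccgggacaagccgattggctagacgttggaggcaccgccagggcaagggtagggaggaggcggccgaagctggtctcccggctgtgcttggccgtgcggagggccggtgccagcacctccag
Both windows hold 2 matches, at 22 and 31 in Pdk1 and at -143 and -142 in Pdk2. The 2 windows thus held the same number of matches at different places, and their part in either change was not tested. Over all 38 listed genes with a window, 19 of 42 windows (45.2%) held at least 1 match, beside 19.3% of all 33469 windows of that length. The member windows had 46.7% to 72.7% GC, most of them above the mean of 52.7% over all windows, and the motif holds a CG. The shares of 45.2% and 19.3% were not matched for GC, so they are not read as an enrichment. The sites TCAAGGTCA, bound by estrogen-related receptors, and the palindromic site of NRF1 were found on either strand in 0 and 1 of the 42 windows (Pgam1), beside 0.433% and 0.852% of all windows. Pgk1, Slc2a3 and Idh3a had no entry.

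Pdk2 read 5.15 to 6.72 at P3 (median 6.17), 6.67, 6.40, 6.43 and 7.55 at P8, and 8.14, 8.04, 7.86, 8.25 and 7.94 at P21. Its P21 arrays were tightly grouped and lay above all others, and it rose by 2.05 ± 0.27 from P3 to P21 (4.14-fold, adjusted p = 3.15e-05, limma). The step from P8 to P21 was 1.28 ± 0.30 (adjusted p = 0.0088), while that from P3 to P8, 0.77 ± 0.29, was not called (adjusted p = 0.0823, limma). Pdk1 read 6.41 to 7.17 at P3 (median 6.80), 6.68, 6.34, 5.25 and 5.97 at P8, and 5.66, 5.69, 5.60, 5.29 and 6.01 at P21. Its P3 and P21 arrays did not overlap, P8 spanned both, and it fell by 1.13 ± 0.23 from P3 to P21 (2.19-fold lower, adjusted p = 0.00124, limma). A second Pdk1 probe set was also called lower from P3 to P21, by -0.77, but with another timing. It was at 0.12 ± 0.26 from P3 to P8 (not called) and at -0.89 ± 0.27 from P8 to P21 (adjusted p = 0.0351, limma). The brightest probe set was at -0.72 and -0.41 in these intervals, both not called. Pdk4, the kinase best known from fasting muscle and heart, read 4.23 to 4.88 at P3 (median 4.60), 4.66, 3.92, 5.27 and 4.92 at P8, and 4.29, 4.83, 4.43, 4.78 and 4.73 at P21. Its levels were dim and overlapped at all ages, with a change of 0.03 ± 0.21 (95% interval -0.42 to 0.48). Pdk2 minus Pdk1 went from -0.79 ± 0.56 (SD, n = 6) at P3 to 0.71 ± 0.80 (n = 4) at P8 and 2.39 ± 0.38 (n = 5) at P21. The shift from P3 to P21 was 3.18, and no 2 age groups overlapped (adjusted p = 0.0238, exact permutation test).

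**Figure D3:**
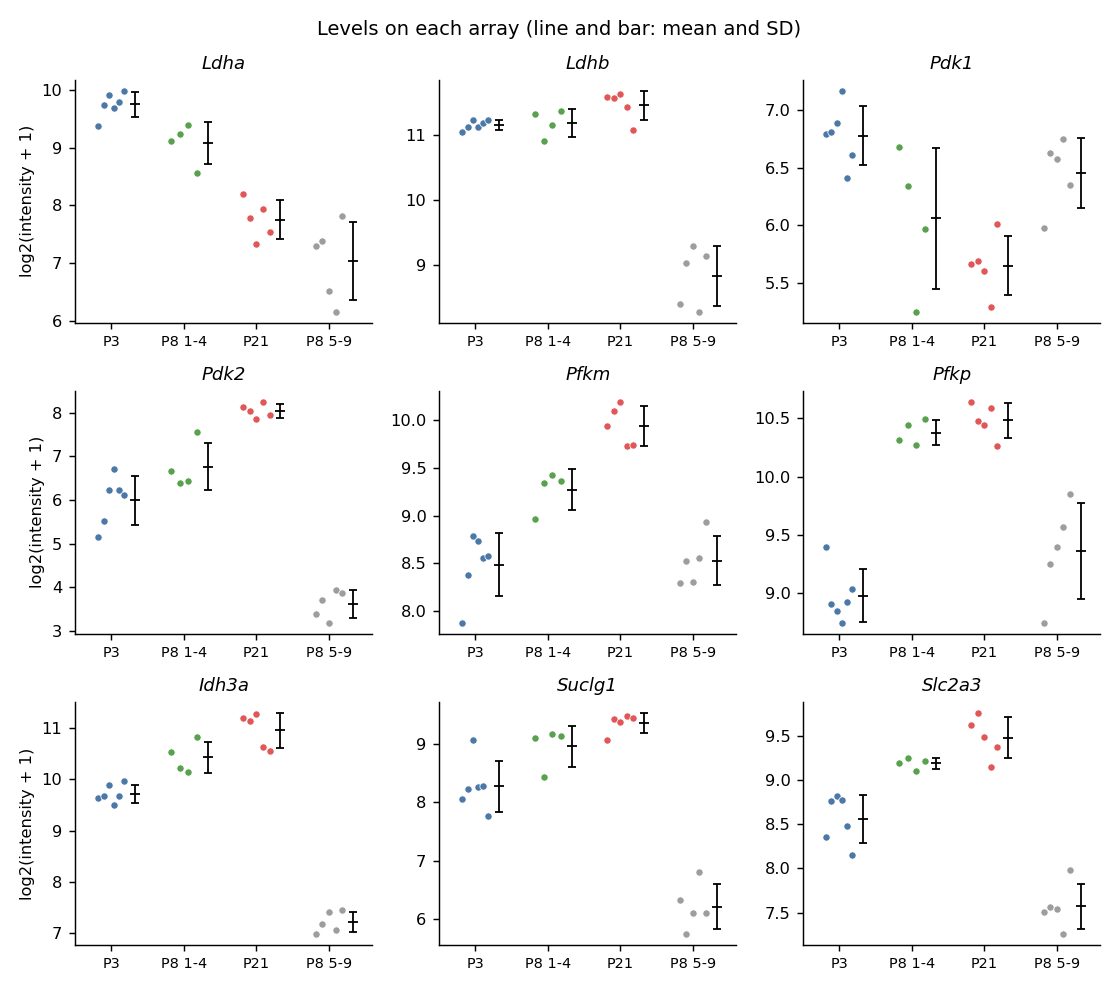
Level of 9 genes, log2(intensity + 1), on each array of P3, P8 replicates 1 to 4, P21 and P8 replicates 5 to 9; points are arrays, and the line and bar are the mean and SD. Ldha and Pdk1 are lower at P21 than at P3, Ldhb overlaps, and Pdk2, Pfkm, Pfkp, Idh3a, Suclg1 and Slc2a3 are higher, while P8 replicates 5 to 9 often lie far from P8 replicates 1 to 4.

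In the citric acid cycle, 5 of 9 tested genes rose from P3 to P21 and 4 were not called, with a median change of 0.66. The largest change was that of Idh3a, the catalytic subunit of the NAD-dependent isocitrate dehydrogenase, a regulated step of the cycle. Idh3a read 9.49 to 9.97 at P3 (median 9.67), 10.53, 10.23, 10.15 and 10.82 at P8, and 11.20, 11.14, 11.27, 10.63 and 10.55 at P21. Its P3 arrays lay below all later ones, and it rose by 1.24 ± 0.18 to P21 (2.36-fold, adjusted p = 6.95e-05) and by 0.71 ± 0.19 to P8 (adjusted p = 0.0212, limma). The call to P8 was lost without P8 replicate 4 (adjusted p = 0.0591). The 2 other subunits of that enzyme had smaller differences that were not called: 0.39 ± 0.15 for Idh3b (adjusted p = 0.0536) and 0.33 ± 0.17 for Idh3g (adjusted p = 0.149, limma). Whether the subunits differ from each other was not tested.

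Suclg1, the alpha subunit of succinyl-CoA ligase, read 7.76 to 9.07 at P3 (median 8.25), 9.10, 8.43, 9.17 and 9.14 at P8, and 9.06, 9.42, 9.38, 9.48 and 9.45 at P21. Its P3 and P21 arrays met at 1 pair, P3 replicate 3 and P21 replicate 1, and it rose by 1.08 ± 0.21 (2.11-fold, adjusted p = 0.00101, limma). Its partner Sucla2, the beta subunit that makes ATP, rose by 0.66 ± 0.16 (adjusted p = 0.00391, limma). Suclg2, the beta subunit that makes GTP, is not in the set but in a wider list of pathway genes, and fell by 0.83 ± 0.21 (adjusted p = 0.00601, limma). It was singled out after its values were seen. Dlst and Ogdh, subunits of the 2-oxoglutarate dehydrogenase complex, rose by 0.96 ± 0.16 (adjusted p = 0.00026) and 0.76 ± 0.18 (adjusted p = 0.00438, limma). Dlst had risen by 0.87 ± 0.17 at P8 (adjusted p = 0.00417, limma). Cs, citrate synthase, the entry enzyme, had a difference of -0.17 ± 0.13 (95% interval -0.45 to 0.11), and Idh2, the NADP-dependent mitochondrial enzyme, one of 0.24 ± 0.20 (95% interval -0.18 to 0.67).

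Of the malate-aspartate enzymes, 2 of 4 rose and 2 were not called. Mdh2, the mitochondrial malate dehydrogenase, read 8.83 to 9.26 at P3 (median 9.05), 9.70, 9.37, 9.48 and 9.64 at P8, and 9.48, 9.62, 9.67, 9.45 and 9.71 at P21. Its P3 arrays lay below all later ones, with a rise of 0.53 ± 0.12 to P21 (adjusted p = 0.00366) and 0.49 ± 0.13 to P8 (adjusted p = 0.0236, limma). The call to P8 was lost without P8 replicate 1 (adjusted p = 0.0602) and without P8 replicate 4 (adjusted p = 0.0518). Got1, the cytosolic aspartate aminotransferase, read 6.89 to 7.56 at P3 (median 7.23), 7.41, 7.07, 7.20 and 7.54 at P8, and 7.58, 7.99, 7.90, 7.94 and 8.07 at P21. Its P21 arrays lay above all others, and it rose by 0.67 ± 0.15 from P3 (adjusted p = 0.00303) and 0.59 ± 0.17 from P8 (adjusted p = 0.0271, limma). The step from P8 lost its call in 5 fits that left out 1 array, up to an adjusted p of 0.0783 without P8 replicate 2. Mdh1, the cytosolic malate dehydrogenase, read 10.84 to 11.05 at P3 (mean 10.97), 11.12, 10.99, 11.45 and 11.16 at P8, and 11.38, 11.35, 11.32, 11.17 and 10.64 at P21. Got2, the mitochondrial aminotransferase, read 10.41 to 11.06 at P3 (median 10.75), 10.94, 10.70, 10.88 and 11.06 at P8, and 11.31, 11.19, 11.28, 10.96 and 10.63 at P21. P21 replicate 5 was the lowest P21 array for both genes, as for many other members such as Aldoa, Eno2 and Idh3a. For Got1 and Mdh2 it was the highest. Neither the difference of Mdh1 nor that of Got2 was called (0.21 ± 0.15 and 0.33 ± 0.16). Without that array Got2 was at 0.44 ± 0.15 and called (adjusted p = 0.0341, limma). Mdh1 was then at 0.34 ± 0.13 and not called (adjusted p = 0.0561, limma).

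Across all 11 isoform pairs, the within-array difference shifted in 5 from P3 to P21. Besides the pairs of Ldh and of Pdk2 with Pdk1, Pdk4 minus Pdk1 shifted by 1.16 ± 0.20 (adjusted p = 0.0238, exact permutation test), with Pdk4 itself at 0.03. Pfkl minus Pfkm went from -3.83 ± 0.46 (SD) to -5.43 ± 0.24, a shift of -1.61 (adjusted p = 0.0314, exact permutation test), with Pfkl itself at -0.15. Mdh2 minus Mdh1 shifted by 0.32 ± 0.17 with overlapping groups (adjusted p = 0.0357, exact permutation test), and this call was lost in 14 of 15 repeats that left out 1 array, with a shift of 0.157 without P21 replicate 5. Both Pfkp and Pfkm rose, and their difference moved by 0.05 ± 0.25 from P3 to P21 (adjusted p = 0.933, exact permutation test). Eno2 minus Eno1 was 2.73 ± 0.72 at P3 and 2.74 ± 0.18 at P21, and Hk1 minus Hk2 was 4.14 ± 0.45 and 3.51 ± 0.89. The shift of Slc16a7 minus Slc16a1 was -1.61 ± 0.55 but missed the threshold (adjusted p = 0.0649, exact permutation test). Those of Slc2a3 minus Slc2a1 and Got2 minus Got1 were 0.40 ± 0.27 and -0.35 ± 0.21 (adjusted p = 0.282 and 0.199, exact permutation tests). Reading each gene through the mean of all its probe sets, dim ones included, left 2 shifted pairs, Ldhb minus Ldha and Pdk2 minus Pdk1.

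**Figure D4:**
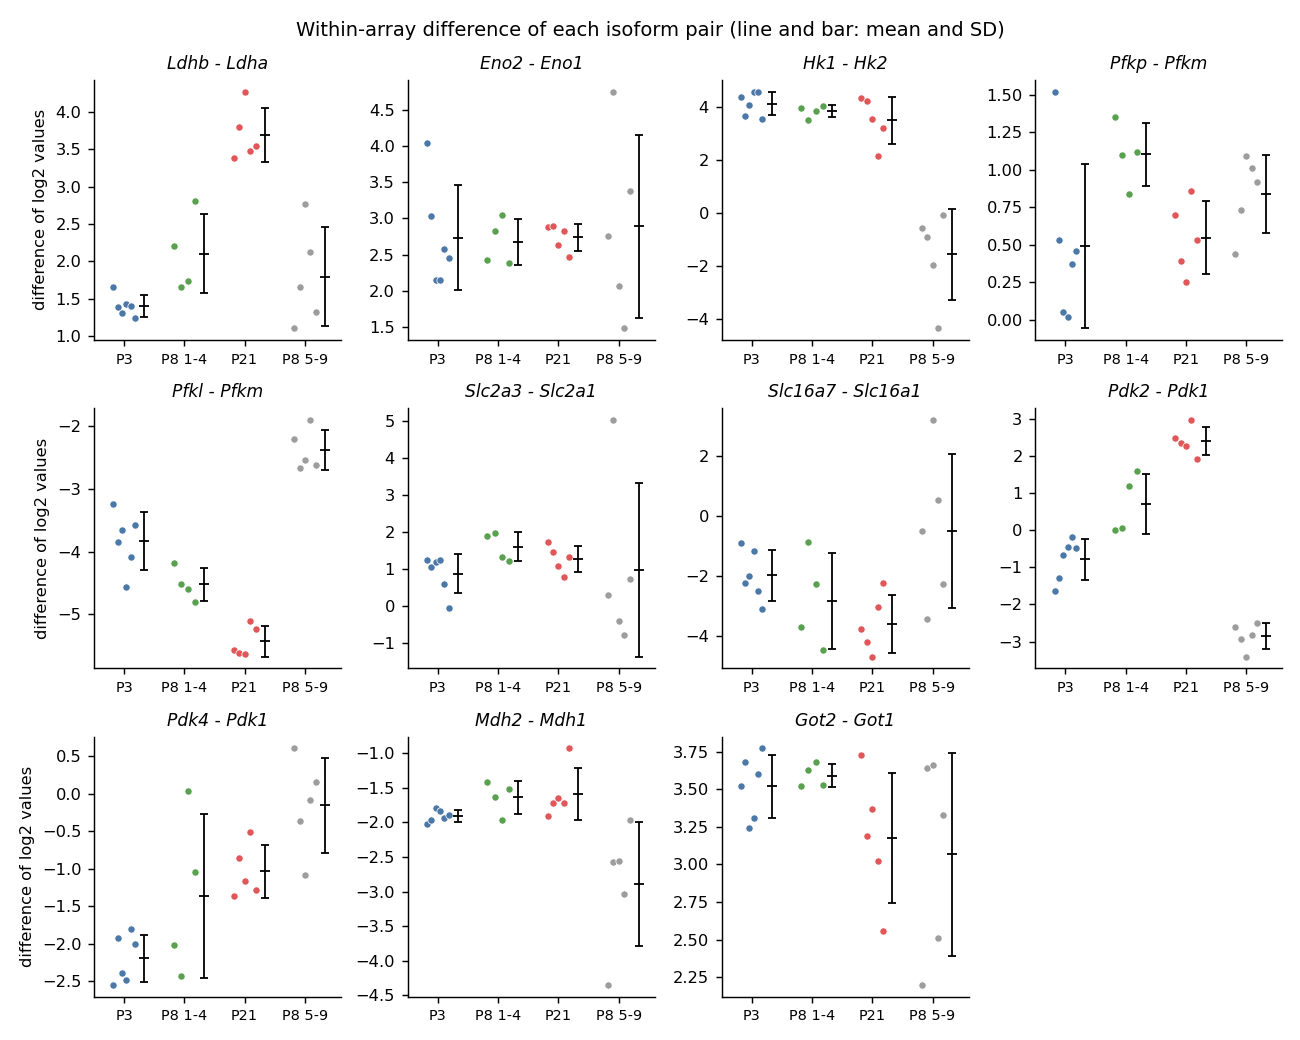
Difference of log2(intensity + 1) between the 2 genes of each of 11 pairs on the same array, for P3, P8 replicates 1 to 4, P21 and P8 replicates 5 to 9; points are arrays, and the line and bar are the mean and SD. Only the change between ages can be read, not the sign of a level: Ldhb minus Ldha goes from 1.41 at P3 to 3.69 at P21, Pdk2 minus Pdk1 from -0.79 to 2.39, and Eno2 minus Eno1 stays at 2.73 and 2.74.

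Each interval on either side of P8 was also tested by itself, with no test of one interval against the other. From P3 to P8, 9 of the 37 genes rose (24.3%, beside 6.98% of all tested probe sets) and 1, Ldha, fell (2.7%, beside 7.8%). The 9 were Slc2a3, Pfkm, Pfkp, Pgam1, Eno2, Pdhb, Idh3a, Dlst and Mdh2, with changes of 0.49 to 1.40 and adjusted p of 7.6e-05 to 0.0243 (limma). In this interval 11 genes had P8 arrays entirely above the P3 arrays (6.73% of all tested probe sets) and 0 entirely below (6.91%). From P8 to P21, 3 genes rose, Pfkm, Pdk2 and Got1 (8.1%, beside 7.98% of all tested probe sets), and 1, Ldha, fell (2.7%, beside 8.0%). Here 4 genes had P21 arrays entirely above the P8 arrays (7.03% of all tested probe sets) and 1 entirely below (6.49%). The share that rose in the later interval was thus near that of all tested probe sets. Median changes of the set were 0.22 and 0.18 in the 2 intervals, beside -0.0244 and 0.0627 over all tested probe sets. The 2 intervals share the P8 arrays, so an error of the P8 mean enters them with opposite sign. Lower glycolysis had medians of 0.68 and 0.02, and the citric acid cycle 0.32 and 0.34. Over all 20 arrays the counts of risen genes turned to 4 and 18, without the shares of all tested probe sets to set beside them. Replicates 5 to 9 read low for most members, as follows.

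**Figure D5:**
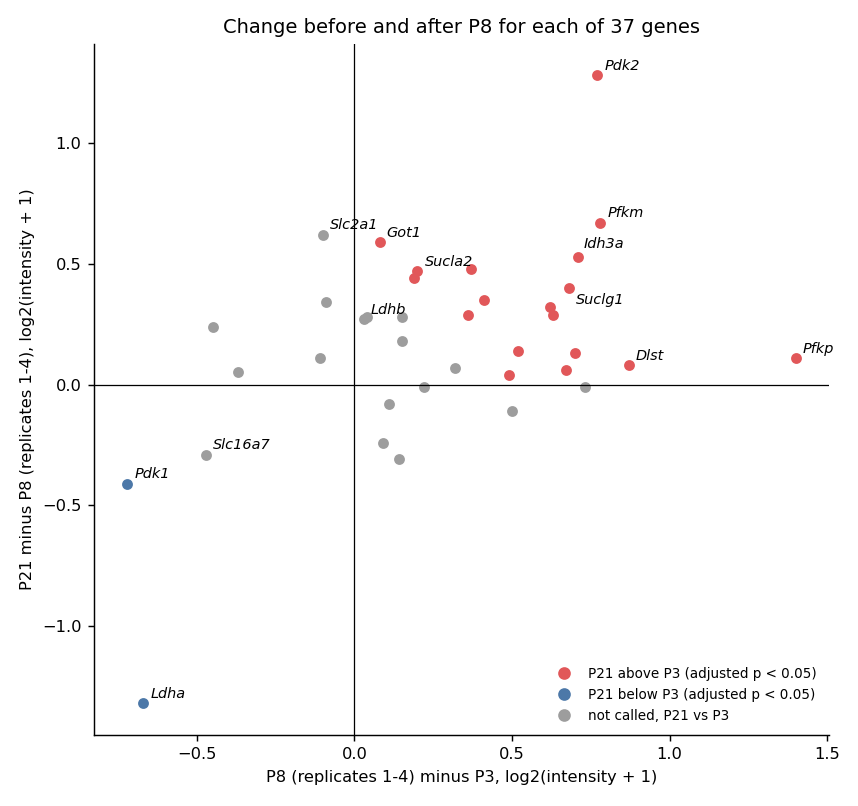
Change from P3 to P8 replicates 1 to 4 (horizontal) against change from these P8 arrays to P21 (vertical), both as differences of mean log2(intensity + 1), for each of the 37 genes; colours give the call for P21 against P3. Pfkp (1.40 and 0.11) and Dlst (0.87 and 0.08) lie far to the right, Got1 (0.08 and 0.59) lies high, Pdk2 (0.77 and 1.28) and Pfkm (0.78 and 0.67) both, and Ldha (-0.67 and -1.32) low on both axes, which share the P8 arrays.

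On P8 replicates 5 to 9, 24 of the 37 genes read below all 15 other arrays (64.9%, beside 9% of all tested probe sets). Hk2, Pfkl and Pdk4 read above all 15 (8.11%, beside 18%), and all 3 were dim on the other arrays. The median difference from P8 replicates 1 to 4 was -1.80 over the set and 0.39 over all tested probe sets. Cs read 6.57 ± 1.57 (SD, n = 5) on replicates 5 to 9 and 10.70 ± 0.18 (n = 4) on replicates 1 to 4, and Dlst read 5.73 ± 0.65 and 9.94 ± 0.07. Ldhb read 8.83 ± 0.45 and 11.18 ± 0.21, and Pdk2 3.61 ± 0.32 and 6.76 ± 0.54. For other members the sets were closer: Pdhb read 10.28 ± 0.45 and 10.78 ± 0.13, and Pgam1 10.50 ± 0.45 and 11.23 ± 0.14. Replicates 5 to 9 had higher median intensities at the same trimmed mean, and most members were bright on the other arrays. The shares above were not matched for brightness, so the low readings are not taken as particular to the set. The 3' minus 5' differences of Gapdh and beta-actin were 1.65 to 2.54 and 0.72 to 2.64 on these arrays. Means of the other 3 groups were 2.91 to 3.99 and 4.29 to 4.70. Why these arrays differ was not tested.

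Other probe sets of the same genes did not always read alike. Of 17 further probe sets 10 passed the filter, and 6 of these had the sign of the brighter probe set and 6 the same call. For Cs, 1 of 3 further probe sets was lower at P21 by -1.54, while the brightest was at -0.17 and the other 2 at 0.54 and 0.25. For Pgk1, a further probe set was higher by 0.52, where the brightest was not called. For Pdha1 a further probe set was at 0.81 (not called), against -0.32 for the brightest. For Mdh1 a further, nearly as bright probe set was at -0.49 ± 0.23 from P3 to P8 (not called). From P8 to P21 it was called higher by 0.84 ± 0.24 (adjusted p = 0.0256, limma). The brightest Mdh1 probe set was at 0.22 and -0.01 in these intervals. With the mean of all its probe sets, the change of Pfkm from P3 to P8 was -0.067 instead of 0.78. By the same mean the P3 to P21 calls of Sucla2 (0.10, adjusted p = 0.751) and Slc16a1 (0.41, adjusted p = 0.188) were lost, as were the step of Slc2a3 from P3 to P8 (0.17, adjusted p = 0.445) and that of Pdk2 from P8 to P21 (0.74, adjusted p = 0.0503, limma).

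Of a wider list of 56 genes of the same pathways, 49 were measured and 43 tested. From P3 to P21, 14 of them rose (32.6%, beside 18.6% of all tested probe sets) and 3 fell (7.0%, beside 18.4%), with a median change of 0.29, beside 0.028 over all tested probe sets. The largest change was that of Gpd1, the cytosolic glycerol-3-phosphate dehydrogenase, also known as an oligodendrocyte-enriched enzyme, which rose by 2.77 ± 0.25 (adjusted p = 9.91e-07, limma). Its mitochondrial partner in the glycerol phosphate shuttle, Gpd2, fell by 1.02 ± 0.21 (adjusted p = 0.00161, limma) and was named after its values were seen. Pc, pyruvate carboxylase, which refills the cycle and is typical of astrocytes, rose by 1.63 ± 0.23 (adjusted p = 5.34e-05, limma). Me3, the mitochondrial NADP-dependent malic enzyme, rose by 1.75 ± 0.27 (adjusted p = 0.000127, limma). Sdha, the flavoprotein of succinate dehydrogenase, rose by 1.09 ± 0.19 (adjusted p = 0.000309), and Slc25a12, the aspartate-glutamate carrier of the malate-aspartate shuttle in neurons, by 0.80 ± 0.14 (adjusted p = 0.000341, limma). Idh1, the cytosolic NADP-dependent isocitrate dehydrogenase, fell by 1.04 ± 0.13 (adjusted p = 1.75e-05, limma). From P3 to P8, 8 of the 43 rose (18.6%, beside 6.98% of all tested probe sets) and 1 fell (2.3%, beside 7.8%). From P8 to P21, 5 rose (11.6%, beside 7.98%) and 2 fell (4.7%, beside 8.0%). The rises of Gpd1 and Pc stood beside oligodendrocyte and astrocyte marker means that were higher by 3.57 and 0.47, and the part of these cells in them was not tested.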

How the data were processed

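RNA of 20 samples was hybridised to rat expression arrays. The authors deposited a table of linear intensities for 31099 probe sets, 57 of them controls, on each array. GCRMA is named in the submitters' processing notes, without version or role. GCRMA gives log2 values, so the step that produced linear intensities is not known here. The mean intensity without the lowest and highest 2% was 100.0 on every array, so arrays had been scaled, and no normalization was added. By the platform annotation 20832 probe sets name 1 gene, 436 several and 9831 none here. Symbols were updated through a RefSeq table of GRCr8 (20764 by Entrez identifier, 2 by accession, 66 kept).

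Values were analysed as log2(intensity + 1), which understates changes of dim genes. Probe sets above log2 4 in at least 5 of 15 arrays were fitted with limma 3.58.1 in R 4.3.3 (lmFit, eBayes, 3 ages in 1 fit), with Benjamini-Hochberg adjustment over 21805 probe sets and calls under 0.05. Pairs and marker means were compared by two-sided exact permutation tests over arrays (smallest possible p 0.00216, 0.00476 and 0.00794 for P21 vs P3, P8 vs P3 and P21 vs P8), adjusted over 33 and 36 tests. Members, lists and tests were chosen with earlier results of these data known. Values per array are given for members called from P3 to P21 with a change of at least 1 and for members of pairs, and other members by their changes; of the wider list, up to 6 called genes with the smallest p are named. On simulated data limma called 2 of 50 probe sets changed 1.5-fold, 28 of 50 changed 2-fold and 42 of 50 changed 4-fold for P21 vs P3. Far fewer probe sets were changed there than were called here, so these rates need not hold for the real arrays. The number of arrays limits the precision. The labels call the samples biological replicates and name no litter, sex or date, so such batches could not be examined. Alternatives were all 20 arrays, other filters, scalings, pseudocounts, variance models, array weights, probe set choices, only 2 ages, a replicate block, an oligodendrocyte covariate, and each array left out.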

Additional observations from a re-analysis of the deposited data

Results flagged for a closer look

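In 152 groups of 4 to 6 arrays (each gene at each age, with P8 replicates 5 to 9 as a group of their own), 10 had an array far from the others by Dixon's criterion at the 95% level. Chance gives about 1 in 20 such groups. Each of the 10 was a low value.

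In the 15 arrays compared, Tpi1 was 9.10 in P3 replicate 1, with the other P3 arrays at 10.18 to 10.40. Gpi was 8.18 in P8 replicate 3, with the others at 8.49 to 8.51. Idh3b was 9.55 in P8 replicate 2 (others 9.91 to 9.94), and Suclg1 was 8.43 on the same array (others 9.10 to 9.17). Suclg1 was also low in P21 replicate 1, at 9.06 (others 9.38 to 9.48). Mdh1 was 10.64 in P21 replicate 5, with the other P21 arrays at 11.17 to 11.38.

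Among P8 replicates 5 to 9, which enter no comparison, Slc2a1 was 2.54 in replicate 6 (others 7.21 to 8.04), and Eno1 was 3.00 on the same array (others 5.15 to 5.68). Slc16a1 was 3.29 in replicate 7 (others 5.36 to 5.89), and Cs was 3.85 in replicate 8 (others 6.93 to 7.93).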

How the results depend on the processing

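From P3 to P21 the 18 risen and 2 fallen genes became 2 and 2 over all 20 arrays and 0 and 0 with the oligodendrocyte marker mean as a covariate. In that fit all 20 called genes kept their sign, the median standard error grew from 0.167 to 0.646, the lowest adjusted p was 0.0849 and 32 of 21805 probe sets were called by limma. Under the other alternatives without omission of an array, 17 to 22 genes rose and 2 to 3 fell. From P3 to P8 the 9 risen genes became 4 (20 arrays), 0 (covariate, where 0 of all 21805 probe sets were called) and 5 (replicate block). The 1 fallen gene became 4 (20 arrays), 0 (medians subtracted, no filter, covariate or replicate block) and 2 (filter at log2 6, 1 probe set per gene, pseudocount of 16, or quantile normalization). From P8 to P21 the 3 risen genes became 18 (20 arrays), 1 (medians subtracted, covariate, or only 2 ages), 6 (filter at log2 6) and 5 (variance trend), and the 1 fallen became 2 with the mean of all probe sets. Shifted pairs went from 5 to 2 for P21 vs P3 with the mean of all probe sets, and from 2 to 1 for P8 vs P3 over 20 arrays. Causes of these moves were not tested, except that 20 arrays add the P8 arrays that stood apart. Shares of all tested probe sets called over 20 arrays are not given here.

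With 1 array left out, risen and fallen genes numbered 16 to 20 and 2 for P21 vs P3, 6 to 10 and 0 to 1 for P8 vs P3, and 1 to 5 and 1 for P21 vs P8. Shifted pairs numbered 4 to 5, 0 to 3 and 0 to 3. Leaving out an array also raises the smallest p the pair tests can give. Reversals are listed here only for results called in either of the fits compared, so other sign changes are left out. Over 20 arrays the change from P3 to P8 reversed for Slc2a3 (-0.27), Eno2 (-1.40), Ldhb (-1.27), Idh3a (-1.08), Dlst (-1.46), Mdh2 (-1.03) and for Pdk2 minus Pdk1 (-0.48). That of Pfkm reversed with the mean of all probe sets (-0.067). Same-numbered arrays were not treated as paired in the main fit. Over 13 pairs the correlation of their deviations was -0.059 to 0.077, and 6 of 15 arrays were closest to their own number. No chance level was set for these values, so they do not settle whether same-numbered arrays shared a batch. With the replicate block 19 genes rose and 2 fell for P21 vs P3, 5 and 0 for P8 vs P3, and 2 and 1 for P21 vs P8.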
